A study of Mus musculus with 4 samples.

Results

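The genes described here are 10 antioxidant enzyme genes of mouse macrophages: the peroxiredoxins Prdx1, Prdx2, Prdx5 and Prdx6, thioredoxin 1 (Txn1), thioredoxin reductase 1 (Txnrd1), sulfiredoxin 1 (Srxn1), catalase (Cat) and the superoxide dismutases Sod1 and Sod2. They are 10 of the 34745 genes in the deposited table and were taken from it by name. They were chosen with their counts in these same libraries already known, so their differences between the groups are given as a description. The fit was run over all genes, but no p-value is printed for these 10, and how many of them passed its threshold is given as a count that supports nothing. RNA had been sequenced from bone marrow-derived monocytes/macrophages (BMMs) of wild-type (wt) male C57BL/6 mice, 8 weeks old. The cells were kept for 12 h without serum (FBS) and then received RANKL, the cytokine that drives osteoclast formation, at 100 ng/mL. In the RANKL+DI group they also received dimethyl itaconate (DI), a membrane-permeable derivative of the macrophage metabolite itaconate, and in the RANKL+Veh group its vehicle DMSO, in both cases for 24 h. Each group holds 2 libraries. All 4 received RANKL, so no library shows these genes in untreated BMMs. The paper's methods give the dose of DI as 20 μM and the sample labels give 20 mM. Nothing in the labels says that the 2 libraries of a group came from separate mice or cultures, so the p-values given for other genes measure only the spread between these libraries, which may be technical.

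Superoxide made by NADPH oxidases or leaking from mitochondria is converted to hydrogen peroxide by superoxide dismutases. Catalase splits hydrogen peroxide inside peroxisomes, while peroxiredoxins reduce it with a cysteine that thioredoxin then reduces again, and thioredoxin reductase returns the electrons from NADPH to thioredoxin. A peroxiredoxin whose cysteine has been oxidised too far is repaired by sulfiredoxin. The transcription factor NRF2, which is released from its inhibitor KEAP1 by electrophiles, is known to bind antioxidant response elements in several of these genes, including Prdx1, Txnrd1 and Srxn1. In osteoclast precursors, hydrogen peroxide is known to act as a signal downstream of RANKL.

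Promoter sequences are shown for each of the 10 genes with a match to the core of the antioxidant response element, whatever its difference between the groups. Whether a match bears on that difference was not tested. RefSeq promoter windows on build GRCm38.p6, each from 250 bases before to 50 bases after a start site, were matched for 9 of the 10 genes (all but Prdx6), in 11 windows. The core TGACNNNGC was searched on both strands, and so was the AP-1 motif TGACTCA, whose other strand reads TGAGTCA and which can overlap the core. The core was found in 4 of the 9 genes, Prdx1, Txnrd1, Srxn1 and Sod1, and in 14.0% of the 27025 genes of the whole promoter table, or 12.4% of its 32851 windows. TGACTCA was found in 2 of the 9 genes, Prdx1 and Srxn1, and in 5.95% of all genes or 5.20% of all windows. The core lay from 133 to 125 bases before the start of Prdx1, from 92 to 84 bases before 1 of the 3 starts of Txnrd1, from 56 to 48 bases before the start of Sod1, and began 28 bases after the start of Srxn1. A match describes the letters of these windows and is not a measured binding site. The 4 cores follow with 10 bases on each side, at chr4:116685456-116685484, chr10:82859104-82859132, chr2:152105542-152105570 and chr16:90220696-90220724. All are written 5′ to 3′ on the strand of the gene, which is the plus strand. The capitals mark the core, which stands on the other strand in all 4.
Prdx1: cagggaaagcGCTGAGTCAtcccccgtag
Txnrd1: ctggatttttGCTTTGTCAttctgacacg
Srxn1: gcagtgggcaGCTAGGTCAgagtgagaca
Sod1: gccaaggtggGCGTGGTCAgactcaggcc

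Prdx1 and Srxn1 are the only members with TGACTCA or TGAGTCA in their windows, and each holds 2 copies. In Prdx1 the copies lay from 237 to 231 and from 131 to 125 bases before the start, and the second is part of the core shown above. In Srxn1 they lay from 102 to 96 and from 45 to 39 bases before the start, and neither overlaps the core. Positions are counted from the RefSeq start. The stretches from the first base of each window to the base before the deposited gene start, which lies further upstream, are given on GRCm38.p6, plus strand, for Prdx1 at chr4:116685349-116685543 and for Srxn1 at chr2:152105274-152105515. Capitals mark the AP-1 motifs and, in Prdx1, the core.
Prdx1 upstream: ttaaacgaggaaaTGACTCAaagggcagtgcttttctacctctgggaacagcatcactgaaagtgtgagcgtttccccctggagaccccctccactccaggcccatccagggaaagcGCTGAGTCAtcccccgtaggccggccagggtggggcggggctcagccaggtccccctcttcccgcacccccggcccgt
Srxn1 upstream: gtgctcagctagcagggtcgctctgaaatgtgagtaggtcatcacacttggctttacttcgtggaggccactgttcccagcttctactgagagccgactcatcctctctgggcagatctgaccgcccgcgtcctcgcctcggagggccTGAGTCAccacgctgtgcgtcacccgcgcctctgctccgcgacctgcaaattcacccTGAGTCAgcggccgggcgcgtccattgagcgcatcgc

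The 4 libraries held between 16085692 and 19403480 counts, and 12590 genes passed the filter on low counts, all 10 members among them. Levels are given as CPM (counts scaled to the library total) on the TMM scale, on which 3 counts, taken as the floor, stand for 0.160 to 0.180 CPM. The 10 most abundant genes took 13.4 to 13.5% of the counts with DI and 10.5 to 10.6% with vehicle, and the TMM factors were 0.963 and 0.967 against 1.04 and 1.04. With these factors the log2 fold change had a median of 0.0012 over the 12590 genes. Scaled by library size only it was −0.10, and the calls shifted from 899 higher and 969 lower to 548 higher and 1932 lower. Over all tested genes, 14.8% passed an adjusted p of 0.05 in edgeR's quasi-likelihood test, 7.14% higher and 7.70% lower with DI. The libraries of the groups did not overlap in 58.6% of tested genes, in 29.0% with DI higher and in 29.6% with DI lower. The macrophage markers Adgre1, Csf1r, Cd68, Itgam, Fcgr1 and Mertk were all tested and summed to 5408 to 5611 CPM with DI and 4543 to 4748 CPM with vehicle. Adgre1, Cd68, Itgam and Mertk were called higher, with Itgam at a log2 fold change of 0.57 (edgeR adjusted p = 0.00186), and Fcgr1 was called lower, at −0.60 (edgeR adjusted p = 0.0314). Among 7 osteoclast markers, Acp5, Ctsk and Ocstamp were called lower, Atp6v0d2 and Itgb3 higher, and Calcr was at 0 in every library. Of 8 erythroid markers, which matter here because red cells are rich in Prdx2 and Cat, 5 had no count and the sum was 0.160 to 0.268 CPM. Neutrophil markers summed to 8.85 to 10.2 CPM with DI and 7.25 to 8.35 CPM with vehicle, with Ly6g at 0, and stromal markers to 40.5 to 42.0 and 43.8 to 49.7 CPM. B cell, T and NK cell, and mast cell and basophil markers each summed to at most 0.600 CPM. Whether the macrophage and osteoclast markers that moved bear on the antioxidant genes was not tested. In bulk RNA, fewer cells of a type and less RNA per cell cannot be told apart.

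Of the 10 members, 7 were called and all 7 were higher with DI. Over all tested genes, 14.8% were called in either direction and 7.14% were called higher. On the TMM scale the libraries did not overlap for 9 members, 8 higher and 1 lower with DI, and overlapped for Prdx2. Over all tested genes they did not overlap in 58.6%, in 29.0% with DI higher and in 29.6% with DI lower. The median log2 fold change of the members was 0.51. The members were chosen on this same difference, so nothing is read from these counts. Together the 10 genes took 1.51 and 1.54% of all counts in the RANKL+DI libraries and 0.820 and 0.793% in the RANKL+Veh libraries. Most of that share belonged to Prdx1, with 1.04 and 1.06% against 0.506 and 0.486%.

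**Figure D1:**
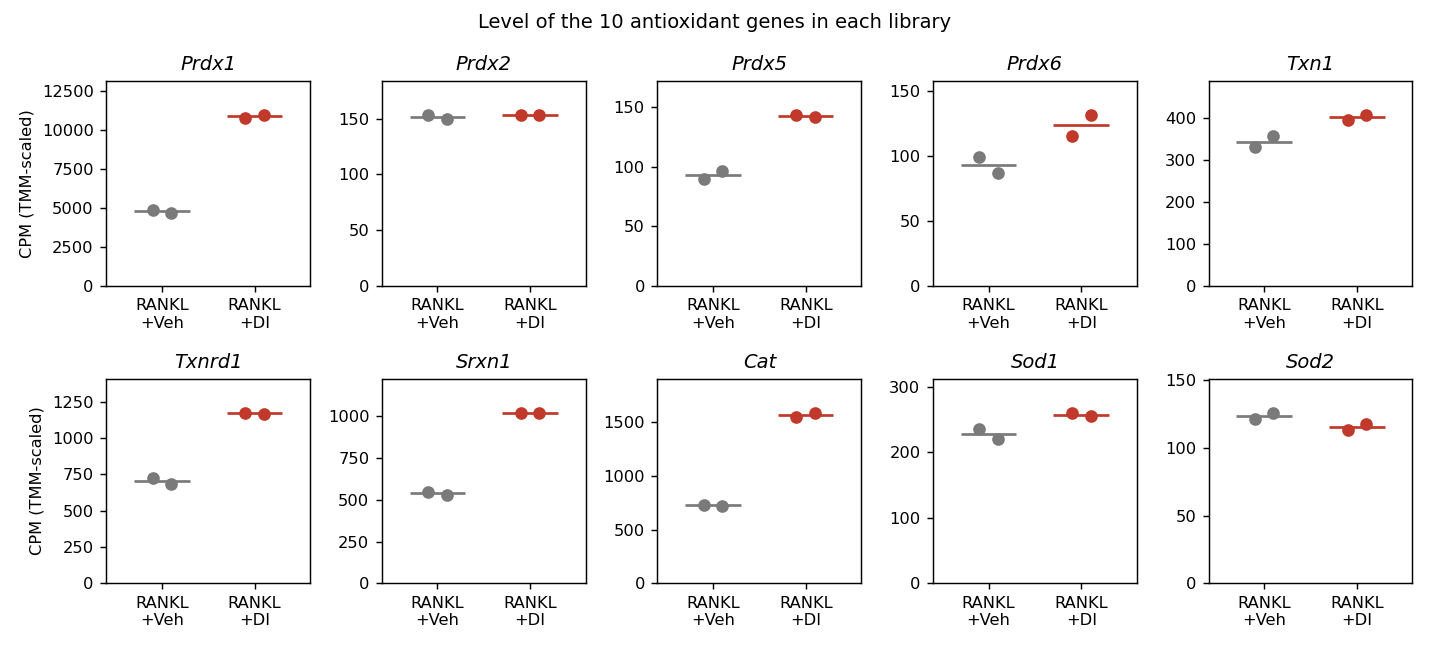
Level of each of the 10 genes in CPM (vertical axis, from 0, its own scale in each panel) in the 2 RANKL+Veh and 2 RANKL+DI libraries, with points for libraries and a line for the mean of each group. Prdx1 lies at 4691 and 4883 CPM with vehicle and at 10800 and 10962 CPM with DI, while the points of Prdx2 overlap.

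Prdx1 encodes a cytosolic peroxiredoxin and was the most abundant of the 10 genes by a wide margin. It stood at 10800 and 10962 CPM in the RANKL+DI libraries and at 4883 and 4691 CPM in the RANKL+Veh libraries (185373, 205548, 90959 and 78139 counts). Both libraries with DI lay far above both with vehicle, and the libraries of a group lay close together. The mean was 10881 ± 115 CPM with DI and 4787 ± 136 CPM with vehicle (SD, n = 2 each), which is a log2 fold change of 1.18 (SE 0.032), or 2.27-fold. By count, Prdx1 ranked 7 and 8 among all genes with DI and 11 in both libraries with vehicle. Its log2 fold change lay at percentile 99.2 of all tested genes.

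Prdx2, its closest cytosolic relative, differed little between the groups. It was measured at 153.1 and 152.8 CPM with DI and at 153.1 and 149.8 CPM with vehicle, so the groups overlapped. The means were 153.0 ± 0.221 and 151.5 ± 2.34 CPM (SD, n = 2 each) and the log2 fold change was 0.014 (SE 0.041), which became −0.09 when the libraries were scaled by size only. The overlap depended on this scaling too. As a share of all counts, Prdx2 was at 0.0147 and 0.0148% with DI and at 0.0159 and 0.0155% with vehicle, so both libraries with DI were the lower. The ratio of Prdx1 to Prdx2 counts within a library, which no scaling changes, was 70.5 and 71.7 with DI and 31.9 and 31.3 with vehicle. Prdx2 overlaps Rnaseh2a and Junb on the opposite strand over 5.80% and 5.67% of its exons, and the use of strand in counting was not stated. The pseudogene Tdpx-ps1, 96.3% identical over 37.0% of the Prdx2 transcript, held 52 to 111 counts against 2495 to 2865 for Prdx2.

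Prdx5 encodes a peroxiredoxin found in mitochondria, peroxisomes and the cytosol. It stood at 143.4 and 142.2 CPM with DI and at 90.1 and 96.7 CPM with vehicle. Both values with DI were above both with vehicle. The means were 142.8 ± 0.849 and 93.4 ± 4.69 CPM (SD, n = 2 each), which is a log2 fold change of 0.61 (SE 0.052), or 1.53-fold. It shares 19.1% of its exons with Trmt112 on the opposite strand, a gene with 40 to 103 counts here against 1611 to 2667 for Prdx5.

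Prdx6 encodes the peroxiredoxin that takes its electrons from glutathione rather than thioredoxin and also acts on phospholipids. Its level was 115.9 and 131.6 CPM with DI and 99.4 and 87.4 CPM with vehicle. The groups did not overlap, but the lower library with DI and the higher with vehicle were about as far apart as the 2 libraries with DI. The means were 123.8 ± 11.1 and 93.4 ± 8.53 CPM (SD, n = 2 each), with a log2 fold change of 0.41 (SE 0.088), or 1.32-fold. Over 14 alternative fits the log2 fold change ran from 0.28 to 0.50.

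**Figure D2:**
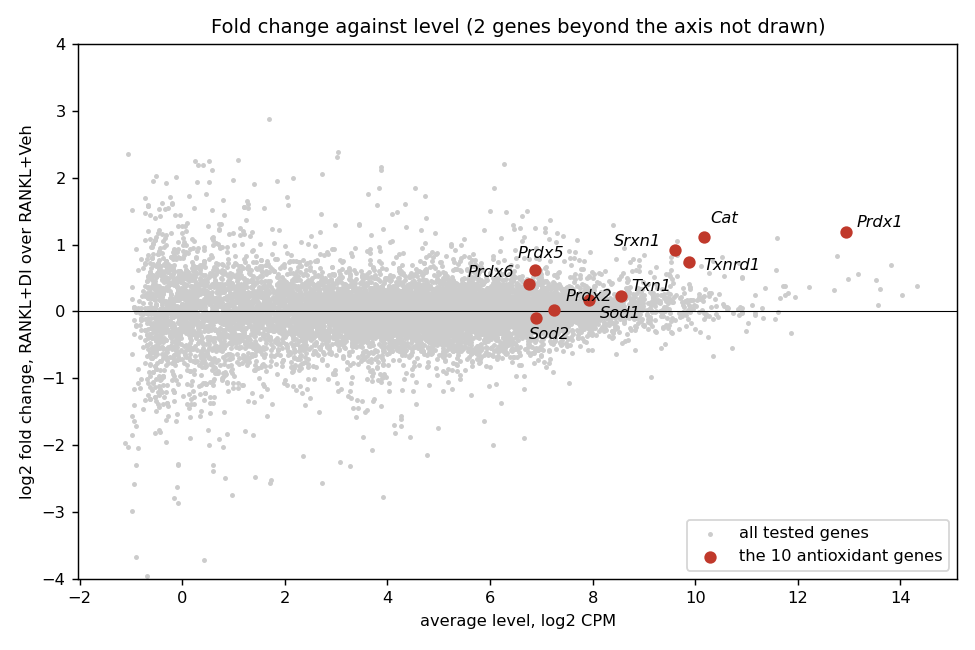
Log2 fold change of RANKL+DI over RANKL+Veh (vertical axis) against average level in log2 CPM (horizontal axis) for all tested genes in grey, with the 10 antioxidant genes in red. Prdx1, Cat, Srxn1 and Txnrd1 lie high on both axes, at log2 fold changes of 1.18, 1.11, 0.92 and 0.73.

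Srxn1 encodes the enzyme that repairs overoxidised peroxiredoxins. It stood at 1015 and 1018 CPM with DI and at 548 and 527 CPM with vehicle, and all values with DI were above those with vehicle. The means were 1016 ± 1.68 and 538 ± 14.9 CPM (SD, n = 2 each), which is a log2 fold change of 0.92 (SE 0.036), or 1.89-fold. There were 10.6 and 10.8 counts of Prdx1 for each count of Srxn1 with DI and 8.91 and 8.90 with vehicle. The RNA of Srxn1 and that of Prdx1 were thus both higher, and Prdx1 by more. These libraries give no protein levels.

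Txnrd1 encodes the cytosolic selenoprotein that reduces thioredoxin. It was at 1174 and 1167 CPM with DI and at 724 and 683 CPM with vehicle. The libraries with DI were again both the higher. The means were 1170 ± 4.81 and 704 ± 29.1 CPM (SD, n = 2 each), which is a log2 fold change of 0.73 (SE 0.040), or 1.66-fold. Txn1, the cytosolic thioredoxin on which this enzyme acts, stood at 396.6 and 407.4 CPM with DI and at 330.8 and 357.6 CPM with vehicle. Its groups did not overlap either, but they lay closer together. The means were 402 ± 7.61 and 344 ± 18.9 CPM (SD, n = 2 each), with a log2 fold change of 0.22 (SE 0.049), or 1.17-fold. With library size only the log2 fold change was 0.12. The ratio of Txnrd1 to Txn1 counts was 2.96 and 2.86 with DI and 2.19 and 1.91 with vehicle. The RNAs of the reductase and the thioredoxin thus differed between the groups by unequal amounts under any scaling.

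Cat encodes catalase, the peroxisomal enzyme that needs no electron donor. It was measured at 1545 and 1586 CPM with DI and at 727.4 and 723.5 CPM with vehicle (26518, 29729, 13549 and 12051 counts). The libraries with vehicle lay almost on each other, and both with DI were far above them. The means were 1565 ± 28.7 and 725 ± 2.73 CPM (SD, n = 2 each), which is a log2 fold change of 1.11 (SE 0.033), or 2.16-fold. By count Cat ranked 52 and 48 with DI and 127 and 132 with vehicle, the percentile of its log2 fold change being 99.0. Its promoter window held neither of the motifs searched.

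Sod1, the cytosolic superoxide dismutase that carries copper and zinc, was at 259.9 and 254.6 CPM with DI and at 235.7 and 220.0 CPM with vehicle. The groups did not overlap, with a gap of similar size to the spread of the vehicle libraries. The means were 257 ± 3.78 and 228 ± 11.1 CPM (SD, n = 2 each), and the log2 fold change was 0.17 (SE 0.048), or 1.13-fold. The change in library scaling lowered it to 0.07. Sod2, the mitochondrial dismutase that carries manganese, was at 113.2 and 117.5 CPM with DI and at 120.9 and 125.7 CPM with vehicle. On the TMM scale it was the only member whose libraries with DI were both the lower. The means were 115 ± 3.07 and 123 ± 3.41 CPM (SD, n = 2 each), which is a log2 fold change of −0.10 (SE 0.048), which was −0.20 with library size only. The ratio of Cat to Sod1 counts was 5.94 and 6.23 with DI and 3.09 and 3.29 with vehicle. The ratio of Sod1 to Sod2 counts was 2.30 and 2.17 against 1.95 and 1.75.

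**Figure D3:**
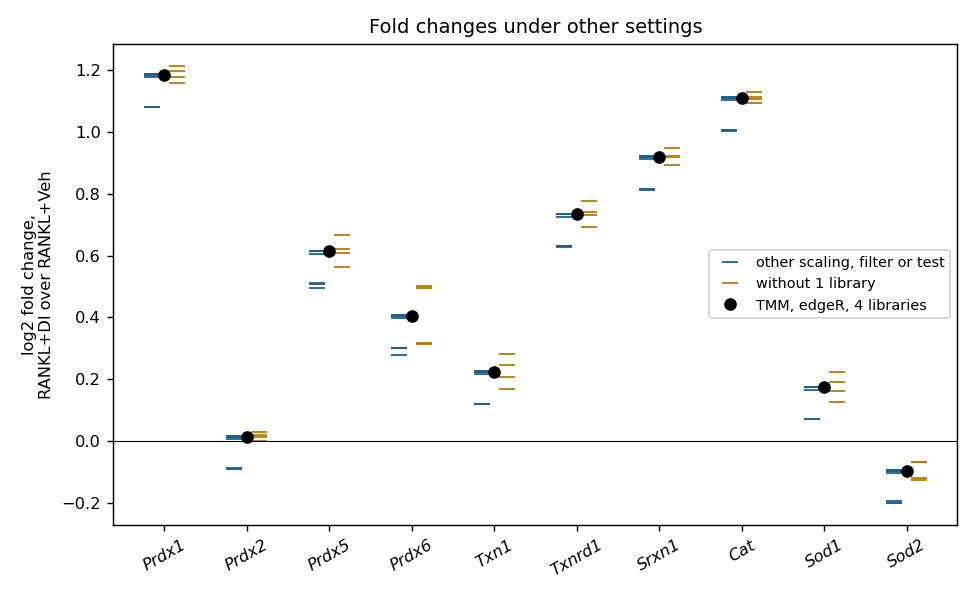
Log2 fold change of each gene (vertical axis) in the edgeR fit with TMM factors (black points), under other scalings, filters and tests (blue lines) and without 1 library (orange lines). Prdx1 stays between 1.08 and 1.21 and Cat reaches 1.13 at most, while Prdx2 runs from −0.09 to 0.03 and so crosses 0.

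The direction was positive in each of 14 alternative fits for Prdx1, Prdx5, Prdx6, Txn1, Txnrd1, Srxn1, Cat and Sod1, and negative in each for Sod2, while that of Prdx2 changed. The ranges were 0.49 to 0.67 for Prdx5, 0.12 to 0.28 for Txn1, 0.63 to 0.78 for Txnrd1 and 0.81 to 0.95 for Srxn1 on the log2 scale. They were 0.07 to 0.22 for Sod1 and −0.20 to −0.07 for Sod2. The lower ends of the wide ranges came from library size only or from log2 FPKM, which both leave out the TMM factors, and, for Prdx6, also from single libraries.

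To compare levels between genes, values per length are needed, and the deposited FPKM, which divide fragments by gene length and library total, were used. In the RANKL+Veh libraries Prdx1 led with a mean of 1213 FPKM, followed by Sod1 with 365, Txn1 with 339, Cat with 240, Txnrd1 with 213 and Srxn1 with 153 FPKM. Sod2 with 33.4, Prdx2 with 29.7, Prdx5 with 25.0 and Prdx6 with 10.6 FPKM came last. The neighbours Sod1 and Txn1 were at 378.0 and 352.6 FPKM against 326 and 352 FPKM, so the lowest value of Sod1 and the highest of Txn1 were nearly equal. With DI, Prdx1 stood at 2566 FPKM and Cat came next at 481 FPKM, ahead of Sod1 at 384, Txn1 at 369, Txnrd1 at 330 and Srxn1 at 270 FPKM. Sod1, at 387.0 and 380.8 FPKM, lay just above Txn1, at 363 and 375 FPKM. Prdx5 at 35.5, Sod2 at 29.1, Prdx2 at 28.0 and Prdx6 at 13.1 FPKM followed, and the neighbours Sod2, at 28.5 and 29.7 FPKM, and Prdx2, at 27.9 and 28.0 FPKM, lay within 2 FPKM of each other.

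The length behind the deposited FPKM differs from that of the principal transcript, and this moves several genes. For Prdx6 it was 9135 bases against 2387 bases for the longest principal transcript in GENCODE M21, and for Prdx2 it was 5276 against 1612 bases. For Prdx1 it was 4089 against 2294 bases, for Prdx5 3875 against 1262 bases, and for Sod2 3824 against 5861 bases. Per kilobase of the principal transcript, Prdx1 stood at 2161 with vehicle and 4573 with DI, Cat at 288 and 578, and Prdx2 at 97.3 and 91.5, all as CPM per kilobase without TMM factors. Sod2 then came last, at 21.8 with vehicle and 19.0 with DI. The order changed for 4 of the 10 genes with vehicle and for 5 with DI. Prdx1 was first under both lengths, and Cat took the fourth place with vehicle and the second with DI under both.

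**Figure D4:**
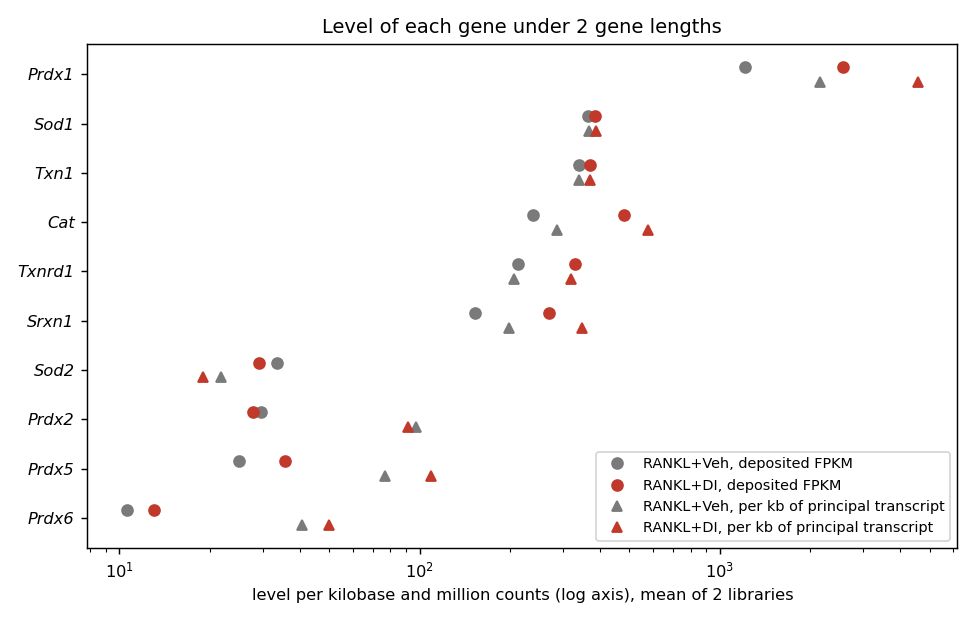
Mean level of each gene over the 2 libraries of a group (horizontal log axis, scaled by length and library total), with circles for the deposited FPKM, triangles for counts per kilobase of the principal transcript, grey for RANKL+Veh and red for RANKL+DI. Prdx1 is highest under both lengths, at 1213 and 2566 FPKM, and Prdx2, Prdx5 and Prdx6 sit higher per principal transcript than in FPKM.

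The deposited positions of the 10 genes are on GRCm38, and 7 of them have the same start and end in GENCODE M21 (all but Txnrd1, Sod1 and Sod2). On the plus strand lie Prdx1 (ENSMUSG00000028691) at chr4:116685544-116700822, Prdx2 (ENSMUSG00000005161) at chr8:84969587-84974834, Txnrd1 (ENSMUSG00000020250) at chr10:82859206-82897724, Srxn1 (ENSMUSG00000032802) at chr2:152105516-152111376, Sod1 (ENSMUSG00000022982) at chr16:90220742-90226322 and Sod2 (ENSMUSG00000006818) at chr17:13007839-13018119. On the minus strand lie Prdx5 (ENSMUSG00000024953) at chr19:6906697-6910106, Prdx6 (ENSMUSG00000026701) at chr1:161240112-161251219, Txn1 (ENSMUSG00000028367) at chr4:57943373-57956411 and Cat (ENSMUSG00000027187) at chr2:103453849-103485160. Only Prdx2 and Prdx5 share exon bases with another gene. Processed pseudogenes match Prdx1 (Gm7204 and Gm21399, over 26.0% of the transcript) and Sod1 (Gm8566, over 72.5%). The deposited table holds no row for these pseudogenes, so their counts are not known. How the counting treated reads that fit both a gene and its copy is not given in the sources used here. Txn-ps1, a copy of part of Txn1, had 1 or 2 counts in each library.

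The other genes of the same enzyme system were taken as a list of 19, of which 18 were tested. In edgeR's quasi-likelihood test 2 were called higher and 1 lower with DI, beside 7.14% and 7.70% of all tested genes. Their median log2 fold change was 0.081, with 11 positive and 7 negative, and it fell to −0.022 with library size only. Msrb1, which encodes a selenoprotein that reduces oxidised methionine with the help of thioredoxin, was at 163.2 and 168.3 CPM with DI and at 114.8 and 105.8 CPM with vehicle. It rose by a log2 fold change of 0.59 (SE 0.054, adjusted p = 0.00242 in edgeR with Benjamini-Hochberg adjustment), and both libraries with DI were the higher. Txnip, whose product binds and inhibits thioredoxin, was at 261 and 295 CPM with DI and at 218 and 176 CPM with vehicle. Its log2 fold change was 0.50 (SE 0.11, edgeR adjusted p = 0.0334), and the call was lost without RANKL+DI replicate 2, without RANKL+Veh replicate 2, under the replicate block and with library size only. The call of Txnip was lost on both log2 FPKM scales as well. The exons of Txnip overlap those of the antisense gene Gm15441 over 19.4%, which had 5 to 10 counts.

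Prdx4, the peroxiredoxin of the endoplasmic reticulum, was the 1 gene of this list called lower. It was at 73.2 and 70.4 CPM with DI and at 85.4 and 90.3 CPM with vehicle, without overlap. Its log2 fold change was −0.29 (SE 0.059, edgeR adjusted p = 0.0258), and the call was lost without RANKL+DI replicate 1, without RANKL+DI replicate 2, without RANKL+Veh replicate 2 and under the replicate block. Among 6 peroxiredoxins, then, the differences ran from −0.29 for Prdx4 to 1.18 for Prdx1 on the log2 scale.

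Prdx3, Txnrd2, Txn2 and Ccs, taken as counterparts or partners of members, were not called. Prdx3, the mitochondrial peroxiredoxin, was at 65.5 and 63.8 CPM with DI and at 62.6 and 60.2 CPM with vehicle, a log2 fold change of 0.07 (SE 0.060, edgeR adjusted p = 0.469) that was −0.030 with library size only. Txnrd2, the mitochondrial thioredoxin reductase, was at 18.6 and 18.9 CPM against 17.7 and 17.8 CPM (log2 fold change 0.08, SE 0.088, edgeR adjusted p = 0.608), and this too was below 0 with library size only. Txn2, the mitochondrial thioredoxin, was at 47.7 and 36.7 CPM against 43.9 and 33.7 CPM, so that the groups overlapped (log2 fold change 0.12, SE 0.17, edgeR adjusted p = 0.694). Within libraries, Txnrd1 had 63.2 and 61.6 counts for each count of Txnrd2 with DI and 40.9 and 38.3 with vehicle. Ccs, the chaperone that loads copper into SOD1, was at 19.0 and 22.2 CPM with DI and at 19.2 and 18.9 CPM with vehicle (log2 fold change 0.12, SE 0.11, edgeR adjusted p = 0.525). Sod3, the secreted dismutase, was too low to be tested (6 and 3 counts in the RANKL+DI libraries, 9 and 2 in the RANKL+Veh libraries).

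**Figure D5:**
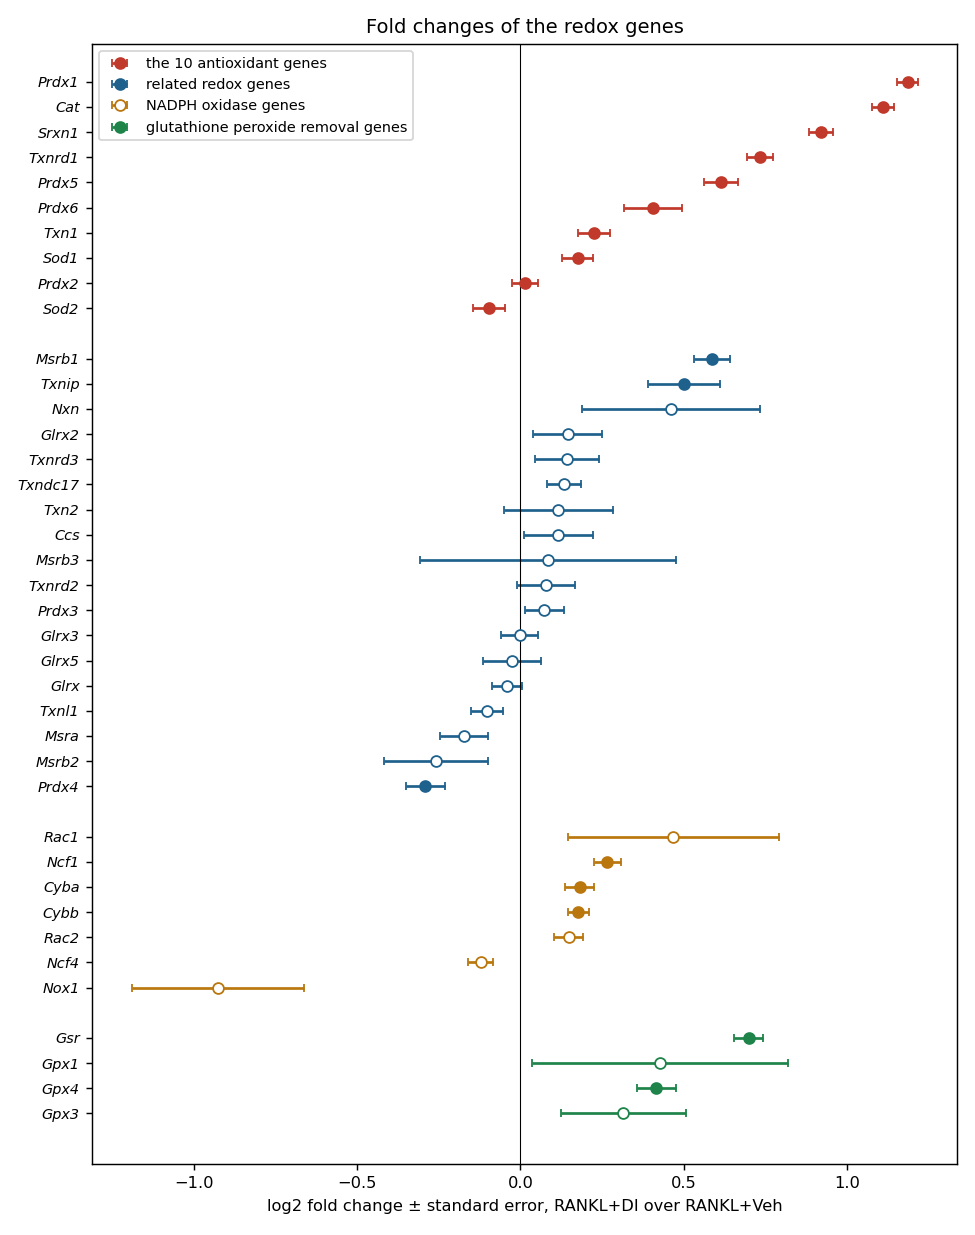
Log2 fold change of RANKL+DI over RANKL+Veh with its standard error (horizontal axis) for the 10 antioxidant genes (red, all filled), related redox genes (blue), NADPH oxidase genes (orange) and glutathione genes (green), where in the last 3 lists a filled point is a gene called at an adjusted p under 0.05 and genes not reported here are not drawn. The antioxidant genes run from −0.10 for Sod2 to 1.18 for Prdx1, and Gsr at 0.70 is the highest of the others.

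Of 14 genes of NADPH oxidases, which make the superoxide that SOD1 and SOD2 remove, 8 were tested and 4 were called, all higher with DI, beside 7.14% of all tested genes called higher. The median log2 fold change was 0.18 over the 8. Ncf1, a cytosolic subunit of the phagocyte oxidase, was at 369 and 374 CPM with DI and at 300 and 317 CPM with vehicle (0.27 on the log2 scale, SE 0.042, edgeR adjusted p = 0.0119). It was higher in each library with DI, and it overlaps Gtf2ird2, with 117 to 179 counts, on the opposite strand. Cybb, which encodes the catalytic membrane subunit, was at 1107 and 1105 CPM against 965 and 992 CPM (0.18 on the log2 scale, SE 0.033, edgeR adjusted p = 0.0192). Its membrane partner Cyba was at 499 and 517 CPM against 462 and 434 CPM (0.18 on the log2 scale, SE 0.045, edgeR adjusted p = 0.0477). The call of Cybb was lost without RANKL+DI replicate 1, RANKL+DI replicate 2 or RANKL+Veh replicate 1, that of Cyba without RANKL+DI replicate 1, RANKL+DI replicate 2 or RANKL+Veh replicate 2, and both calls were lost with library size only. On both log2 FPKM scales the calls of Ncf1, Cybb and Cyba were lost. That of Cyba was also lost with upper quartile factors and under the replicate block. Nox3, Nox4, Duox1, Duox2, Noxa1 and Noxo1 had at most 10 counts in any library and were not tested.

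The glutathione route removes peroxide in parallel. Of 6 genes, 4 were tested and 2 were called, both higher, beside 7.14% of all tested genes called higher, with a median log2 fold change of 0.42 over the 4. Gsr, which encodes glutathione reductase, was at 231 and 238 CPM with DI and at 148 and 141 CPM with vehicle, without overlap (log2 fold change 0.70, SE 0.044, edgeR adjusted p = 0.000807). Gpx4, the peroxidase of membrane lipids, was at 83.7 and 82.9 CPM with DI and at 64.2 and 60.6 CPM with vehicle (log2 fold change 0.42, SE 0.059, edgeR adjusted p = 0.00807). Both kept their call in all 14 alternative fits. Gpx1, the abundant cytosolic glutathione peroxidase, had 3117 and 8520 counts in the RANKL+DI libraries and 4912 and 3496 in the RANKL+Veh libraries, so they disagreed within each group and no difference was called. Gpx7 and Gpx8 had at most 15 counts in any library and were not tested.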

How the data were processed

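RNA-seq was carried out on 4 BMM libraries (VAHTS mRNA-seq kit, paired-end), grouped by their labels into 2 RANKL+DI and 2 RANKL+Veh libraries. The deposited table holds the authors' read count for each gene, not normalized. Beside the counts stand deposited FPKM values, scaled by library total and gene length. The submitters' processing notes name GRCm38 and mm10. The aligner and the counting program are not given in the sources used here.

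Counts were fitted with edgeR 4.0.16 under R 4.3.3, with low genes removed by its default filter, TMM factors, and condition as the single term of a quasi-likelihood model. P-values were adjusted by Benjamini-Hochberg over 12590 tested genes. A gene was called at an adjusted p under 0.05. Each standard error was computed from the F statistic and the fold change. Libraries held 16085692 to 19403480 counts, and floors cover counting error only. Replicates of a group differed beyond sampling noise (chi-square per degree of freedom 8.06 with DI and 8.23 with vehicle). The members, lists and tests were chosen with earlier results of these data known.

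All 10 members are named, with list genes that were called, that are counterparts of a member (Prdx3, Txn2, Txnrd2, Ccs, Txnip) or that could not be tested, copies of members, and the 5 tested genes with an average log2 CPM of at least 5 nearest to the members' mean pattern. Some genes under this rule are not reported here. Gpx1 and Rac1 were named after their values were seen. Transcripts were compared with GENCODE M21 by BLAST+ 2.17.0 (at least 95% identity over 20% of the transcript). Promoter windows came from RefSeq (GRCm38.p6).

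The alternatives were DESeq2 size factors, upper quartile factors, library size only, no filter, a minimum of 10 counts per library, the Wald test of DESeq2 1.42.0, limma-voom (limma 3.58.1), limma on log2(FPKM + 1) and log2(FPKM + 0.01), the replicate number as a block, and each library left out in turn. Ratios within a library and levels per principal transcript were added after the data were seen. The steps were tested on simulated data.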

Additional observations from a re-analysis of the deposited data

How the results depend on the processing

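In the alternative fits that kept all 4 libraries, between 6 and 8 of the 10 members were called in either direction. Beside them, 1389 to 2480 of all tested genes were called. Tested genes numbered 12590, or 18290 with no filter and 11919 with a minimum of 10 counts per library. With library size only and on both log2 FPKM scales, the log2 fold change of Sod2 lay from −0.20 to −0.19. In those fits it lay from 0.28 to 0.30 for Prdx6 and at 0.12 for Txn1. The median log2 fold change of the members was 0.41 with library size only, 0.39 on log2(FPKM + 1), 0.41 on log2(FPKM + 0.01), and 0.73 without the 5 members that share a transcript stretch with another gene. The median of the related redox genes reversed, to −0.022 with library size only, −0.011 on log2(FPKM + 1) and −0.025 on log2(FPKM + 0.01). These settings leave out the TMM factors, and with library size only the median of all tested genes was −0.10. Without 1 library, 1087 to 1394 tested genes were called (1120 without RANKL+Veh replicate 1 and 1087 without RANKL+Veh replicate 2, against 1868), 1 to 3 related redox genes (1 without RANKL+DI replicate 2 or RANKL+Veh replicate 2) and 2 to 4 NADPH oxidase genes (2 without RANKL+DI replicate 1 or RANKL+DI replicate 2). When 1 library was left, it was assumed to vary like the other group. Without 1 library the median log2 fold change of the members ran from 0.47 to 0.55. That of Prdx6 then ran from 0.31 to 0.50 and that of Txn1 from 0.17 to 0.28.

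With the replicate block 1389 genes, 6 members and 1 related redox gene were called, and Prdx4, Txnip and Cyba lost their call. Deviations from the group means correlated at −0.063 across 12590 genes between replicate 1 of RANKL+DI and replicate 1 of RANKL+Veh. Whether libraries with the same replicate number shared a batch is not given in the labels. A single value over all genes cannot tell. No called gene among those named changed direction. For the members, which are described without a test, 113 log2 fold changes moved by less than the replicate spread and 27 by more. For the other named genes, 156 values kept their side of the threshold and 26 lost a call. Counts per kilobase of a deposited gene length were not run. With 2 libraries a group, the call of small differences depended on single libraries, as for Prdx4, Cybb and Cyba.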

Other observations

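The genes whose pattern over the 4 libraries was nearest to the mean pattern of the 10 antioxidant genes included Emb, Ms4a6d, Cd84 and Tmem189, with Euclidean distances of 0.0165, 0.0166, 0.0277 and 0.0381 in log2 CPM. Their log2 fold changes were 0.52, 0.54, 0.53 and 0.52. Emb, which encodes embigin, a partner of monocarboxylate transporters, was at 439 and 443 CPM with DI and at 308 and 306 CPM with vehicle. The 10 antioxidant genes themselves lay at distances of 0.124 to 0.658 from their mean. Emb and the others were picked as the nearest among all tested genes of sufficient level, so their smaller distances follow from the choice.

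In RANKL+Veh replicate 2 Rac1, which encodes a GTPase of the NADPH oxidase, stood at 219 CPM, against 475 to 481 CPM in the other libraries. Rac1 shares 51.4% of its exons with Daglb on the opposite strand, a gene with 1534 to 2010 counts here. Gpx1 stood at 454 CPM in RANKL+DI replicate 2, against 182 to 264 CPM in the other libraries. The cause of either value was not tested.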
